A study of Mus musculus with 60 samples.

Results

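The average effect of progesterone on the mouse mammary gland was measured across both estrogen levels of a treatment design with and without each hormone. Of the 20 ovariectomized mice of the series, the 17 with intact glands were used: 9 received progesterone and 8 did not. The 9 were the animals given 1 mg of progesterone alone (P, 4 animals) or progesterone together with 2 µg of 17-beta-estrogen (E+P, 5 animals). The 8 were the animals given 100 µl of sesame oil as vehicle (V, 4 animals) or 2 µg of 17-beta-estrogen alone (E, 4 animals). All of them lacked their ovaries, and each received its hormone or oil as a daily intraperitoneal dose over 4 days. Neither strain nor age is stated in the labels. Lymph nodes had been taken out of the glands, per the design text. The description field of the V samples names progesterone, while their titles and protocols and the design text name sesame oil; the titles were followed. RNA was read on 3 Affymetrix array types (A, B and C), which gave 51 of the 60 arrays. The labels do not state that the 3 arrays of a group and replicate number are from 1 animal. This was assumed, and the counts of animals rest on it. The other 3 animals, given E+P, had fat pads free of epithelium and are cited only where a level there helps to place a gene.

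Progesterone acts through its receptor, a nuclear hormone receptor that binds DNA and that in the mammary gland is found in a subset of luminal epithelial cells. Estrogen receptor signalling raises the amount of progesterone receptor, so the presence of estrogen can change how a gland answers progesterone. In the adult mouse gland progesterone is known for driving side branching and alveolar growth, largely through paracrine signals such as Rankl and Wnt4 sent from receptor-positive to receptor-negative cells.

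A pair of values was taken for each probe set: P minus V, the progesterone difference without estrogen, and E+P minus E, the difference with estrogen. Their average is the progesterone effect described here, on the log2 scale, where a value of 1 is a doubling. The arrays hold 36899 probe sets, 198 of them controls; 21510 passed the filter on dim probe sets, and these stood for 11759 genes. A probe set was called when its p-value from limma, adjusted by the Benjamini-Hochberg method over the 21510 probe sets, was below 0.05. The titles call the animals biologic replicates. The luminal keratin Krt8 lay between 9.19 and 10.83 in the intact glands (log2 intensity) and was at the floor of 3.80 in each epithelium-free fat pad, so the gland label held by this marker.

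Averaged over both estrogen levels, progesterone lowered the secreted iron-binding protein lactoferrin (Ltf) and the retinol-binding protein Rbp7, and few other changes passed the test. Of the 21510 probe sets, 4 were called (0.0186%), 1 higher (0.00465%) and 3 lower (0.0139%) with progesterone, and of 11759 genes with a symbol 2 were called, both lower (0.017%). The 2 others have no gene name in the annotation used. By unadjusted p below 0.05 there were 1435 probe sets (6.67%). The 4 called probe sets had the same direction without and with estrogen, beside 45.1% of all 21510. They had been picked by the average of these 2 differences, so equal directions were favoured in advance. The count of 4 became 8 without P 1, 7 without E 4 and 2 or 3 without any other animal, and it was 0 without the filter on dim probe sets.

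Ltf encodes lactoferrin, a milk and mucosal glycoprotein of innate defence that is a classical estrogen-induced gene of the mouse uterus. In log2 intensity it stood at 8.76, 8.50, 8.22 and 9.05 in P glands and at 9.90, 10.12, 9.30 and 9.69 in V glands. With estrogen it stood at 8.50, 7.58, 8.32, 8.52 and 7.95 in E+P glands and at 9.22, 10.10, 9.87 and 9.36 in E glands. Every gland with progesterone was below every gland without it, at both estrogen levels. Ltf and the gene Rbm20 (average -0.90, adjusted p 0.31), singled out here after its values were seen, were the probe sets that lay lower without any overlap of the 9 and 8 glands (2 of 21510, 0.0093%), and 2 lay higher (0.0093%). The average difference for Ltf was -1.29 ± 0.168 (SE), or 2.45-fold lower, with an adjusted p of 0.00506. It was -1.12 without estrogen and -1.46 with it, and the difference between these was -0.34 ± 0.337 (SE), adjusted p 0.745. Estrogen's own average difference for Ltf was -0.29, adjusted p 0.516. In the 3 fat pads free of epithelium, Ltf read 3.80, 4.77 and 4.29, at or near the intensity floor of 3.80 for array type A. The call held in 38 of 40 alternative settings. Testing every probe set without the filter on dim ones ended it (adjusted p 0.0588), as did a block for replicate number, given below with the processing.

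Rbp7 encodes a cytoplasmic retinol-binding protein known from the endothelium of fat. It stood at 9.61, 9.76, 9.33 and 9.31 in P glands and at 10.51, 10.30, 10.22 and 10.07 in V glands. With estrogen it stood at 8.53, 7.79, 8.34, 7.91 and 7.23 in E+P glands and at 10.19, 9.18, 9.47 and 9.41 in E glands. The groups did not overlap at either estrogen level, but P glands overlapped E glands, and estrogen also went with a lower level. The average progesterone difference was -1.19 ± 0.162 (SE), or 2.28-fold lower, adjusted p 0.00506, and that of estrogen was -1.13, adjusted p 0.00217, one of 176 probe sets called for estrogen (0.818%). The progesterone difference was -0.77 without estrogen and -1.60 with it, and the difference between these did not pass the test (-0.83 ± 0.323 (SE), adjusted p 0.312). The fat pads free of epithelium had Rbp7 at 9.19, 8.72 and 9.31, each above all 5 intact E+P glands. The call was lost without the filter on dim probe sets (adjusted p 0.061), without the estrogen term (0.385) and with a skeletal muscle score in the model (0.0729).

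The 2 called probe sets without a gene name were 100323_at, on array type A, and 165219_s_at, on array type B. Probe set 100323_at stood at 7.13, 6.92, 6.29 and 6.73 in P glands and at 7.72, 7.58, 7.43 and 7.48 in V glands. In the presence of estrogen its level was 6.93, 6.85, 6.65, 6.70 and 7.45 in E+P glands and 8.25, 8.42, 8.24 and 7.36 in E glands. The P and V glands did not overlap, while 1 E+P gland lay above the lowest E gland. The average was -0.97, adjusted p 0.0468. Probe set 165219_s_at lay between 8.96 and 9.36 in the 9 glands with progesterone and between 8.28 and 8.90 in the 8 without, and it was one of the 2 probe sets whose 9 glands all lay higher. Its average was 0.55, adjusted p 0.0468. Both calls rested close to the threshold: over 38 alternative settings, the call held in 16 for 100323_at and in 14 for 165219_s_at, with the direction the same in each.

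**Figure D1:**
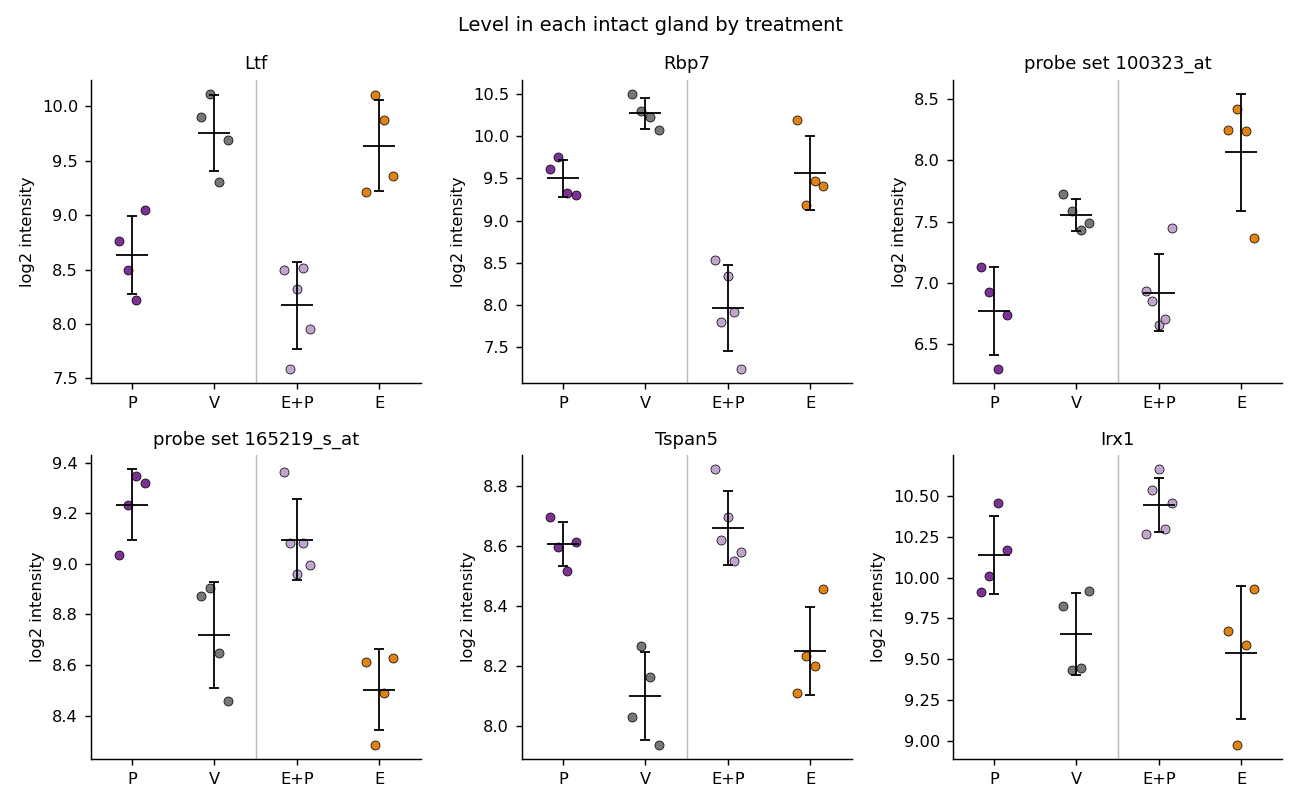
Log2 intensity in each intact gland, by treatment, for the 4 called probe sets and for Tspan5 and Irx1, which were not called. Points are animals, bars the mean and SD, and the grey line parts the glands without estrogen (left) from those with it (right). Ltf lies between 7.58 and 9.05 in glands with progesterone and between 9.22 and 10.12 in glands without.

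To show where in the genome the lowered genes start, the 300 bases from 250 before to 50 after the RefSeq start are given for Ltf, Rbp7 and Btnl9, the next gene by p, on build GRCm38.p6. The core of the DNA element that progesterone and glucocorticoid receptors bind, AGAACA or its reverse complement TGTTCT, was searched on both strands and is in capitals where present. The gene Ltf lies at chr9:111019292-111042766 and Rbp7 at chr4:149449687-149466462, an interval that covers 3 RefSeq transcripts. The promoter table holds a single Rbp7 start, which lies inside that interval, and the window is set by this start. The windows printed are chr9:111019042-111019341 (+ strand), chr4:149454919-149455218 (- strand) and chr11:49187040-49187339 (- strand).
Ltf: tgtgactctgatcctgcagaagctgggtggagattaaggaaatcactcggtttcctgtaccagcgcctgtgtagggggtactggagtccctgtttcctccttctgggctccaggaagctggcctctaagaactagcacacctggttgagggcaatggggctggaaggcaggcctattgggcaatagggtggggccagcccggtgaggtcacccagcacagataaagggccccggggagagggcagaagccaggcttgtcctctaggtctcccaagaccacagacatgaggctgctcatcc
Rbp7: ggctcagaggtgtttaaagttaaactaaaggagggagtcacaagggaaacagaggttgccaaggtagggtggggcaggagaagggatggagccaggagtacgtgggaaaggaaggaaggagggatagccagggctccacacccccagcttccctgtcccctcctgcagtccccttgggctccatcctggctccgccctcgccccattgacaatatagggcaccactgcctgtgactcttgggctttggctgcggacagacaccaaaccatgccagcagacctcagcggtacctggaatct
Btnl9: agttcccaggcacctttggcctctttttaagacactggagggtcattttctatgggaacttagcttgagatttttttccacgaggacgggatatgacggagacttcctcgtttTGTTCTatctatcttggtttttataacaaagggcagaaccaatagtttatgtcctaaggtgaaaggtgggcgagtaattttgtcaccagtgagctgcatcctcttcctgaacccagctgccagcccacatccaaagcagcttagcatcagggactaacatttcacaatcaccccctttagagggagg
This motif occurs in the Btnl9 window, at position -137 from the start, and not in the Ltf or Rbp7 window. Of 32851 mouse promoter windows of this length on file, 19.0% hold it. Of the 10 genes named below as lower, 2 of 10 hold it in a window on file (Btnl9 and Mlph), and of those named as higher, 1 of the 8 on file does (BC006965), beside 21.3% of 27025 genes.

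Among genes that stood higher with progesterone, no gene with a symbol passed the test. The 10 of smallest p were led by the homeobox factor Irx1 and the tetraspanin Tspan5. Irx1, an Iroquois homeobox transcription factor, stood at 9.91, 10.01, 10.46 and 10.17 in P glands and at 9.83, 9.43, 9.45 and 9.92 in V glands. With estrogen, Irx1 stood at 10.27, 10.54, 10.66, 10.30 and 10.46 in E+P glands and at 9.68, 8.97, 9.59 and 9.93 in E glands. By this probe set only the glands with estrogen were apart, and 1 P gland lay just under the highest V gland. The average was 0.69 ± 0.123 (SE), adjusted p 0.0572. Its other probe sets read 0.83 (adjusted p 0.0572) and 0.39 (0.441). The one at 0.83 had no overlap of P with V glands or of E+P with E glands.

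Tspan5, a membrane-spanning tetraspanin, was the other probe set whose 9 glands with progesterone all lay above the 8 without. It read 8.70, 8.60, 8.52 and 8.61 in P glands, against 8.03, 8.27, 8.16 and 7.94 in V glands. With estrogen it read 8.86, 8.62, 8.70, 8.55 and 8.58 in E+P glands, against 8.11, 8.23, 8.20 and 8.46 in E glands. The gap was small beside that of Ltf: the average was 0.46 ± 0.0863 (SE), adjusted p 0.0742, with 0.51 without estrogen and 0.41 with it. A second Tspan5 probe set, on array type C, read 0.17 (adjusted p 0.889).

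The other 8 of these genes did not pass the test either. Wfdc18, a secreted protein of the whey acidic protein family made in mammary epithelium, averaged 1.34 ± 0.255 (SE), adjusted p 0.0878. It lay between 9.91 and 11.38 in the 5 E+P glands, against 7.75 to 9.56 in the 4 E glands, and between 8.11 and 8.97 in P glands, against 7.35 to 8.32 in V glands. So Wfdc18 was apart with estrogen and overlapped without it. Estrogen's own average for Wfdc18 was 1.38, and that passed the test (adjusted p 0.0196). Muc15, a membrane mucin, averaged 1.30 ± 0.274 (SE), adjusted p 0.149, and lay between 7.49 and 8.98 in E+P glands, against 6.09 to 7.37 in E glands. Lmo4, a LIM-only transcriptional regulator of mammary epithelium, averaged 0.56, adjusted p 0.0772. Gab1, an adaptor downstream of receptor tyrosine kinases, averaged 0.82, adjusted p 0.199, and the large cadherin Fat2 averaged 1.05, adjusted p 0.125. The fatty acid desaturase family member Fads3 averaged 0.43 (adjusted p 0.195), Dact2, a Wnt pathway modulator, 1.54 (0.199) and BC006965 0.77 (0.245). For Dact2, 3 of the 4 E glands were at the floor, so its size depends on the floor, and its other, brighter probe set read -0.13. For BC006965 the other probe set read -0.08.

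Among genes that stood lower, 8 followed Ltf and Rbp7, and none of these passed the test. Btnl9, a butyrophilin-like membrane protein, averaged -0.65 ± 0.113 (SE), adjusted p 0.0572. It stood at 9.92, 9.90, 9.58 and 10.10 in P glands and at 10.65, 10.44, 10.52 and 9.79 in V glands, which overlapped through V 4 alone. With estrogen it stood at 9.19, 8.85, 9.17, 9.24 and 9.27 in E+P glands and at 10.13, 9.78, 10.04 and 9.89 in E glands, with no overlap. A second, dimmer Btnl9 probe set read 0.55 (adjusted p 0.832). Estrogen's average for Btnl9 was -0.56, adjusted p 0.0244, the same sign as that of progesterone.

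The other 7 genes that stood lower did not pass the test. Snrk, a kinase of the AMPK-related family, averaged -0.45 (adjusted p 0.0572), while its other probe sets read -0.27 (0.675) and 0.31 (0.921). Melanophilin (Mlph), a linker of vesicles to myosin, averaged -0.83 (0.0742), with a second probe set at -0.25 (0.934). Mycl, a Myc family transcription factor, averaged -1.10 (0.0878), with -1.77 without estrogen and -0.43 with it. It read 4.34, 4.78, 6.16 and 5.82 in P glands, all below the V glands at 6.73 to 7.40. In E+P glands Mycl lay between 6.65 and 7.28, overlapping the E glands at 7.13 to 7.68. Tmed3, a cargo adaptor of the early secretory pathway, averaged -0.51 (0.0953), and Sgms1, a sphingomyelin synthase, -0.51 (0.121), with a second Sgms1 probe set at -0.27 (0.786). The zinc finger gene Zfp664 averaged -0.43 (0.149), and the water channel Aqp5 -0.96 (0.152).

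**Figure D2:**
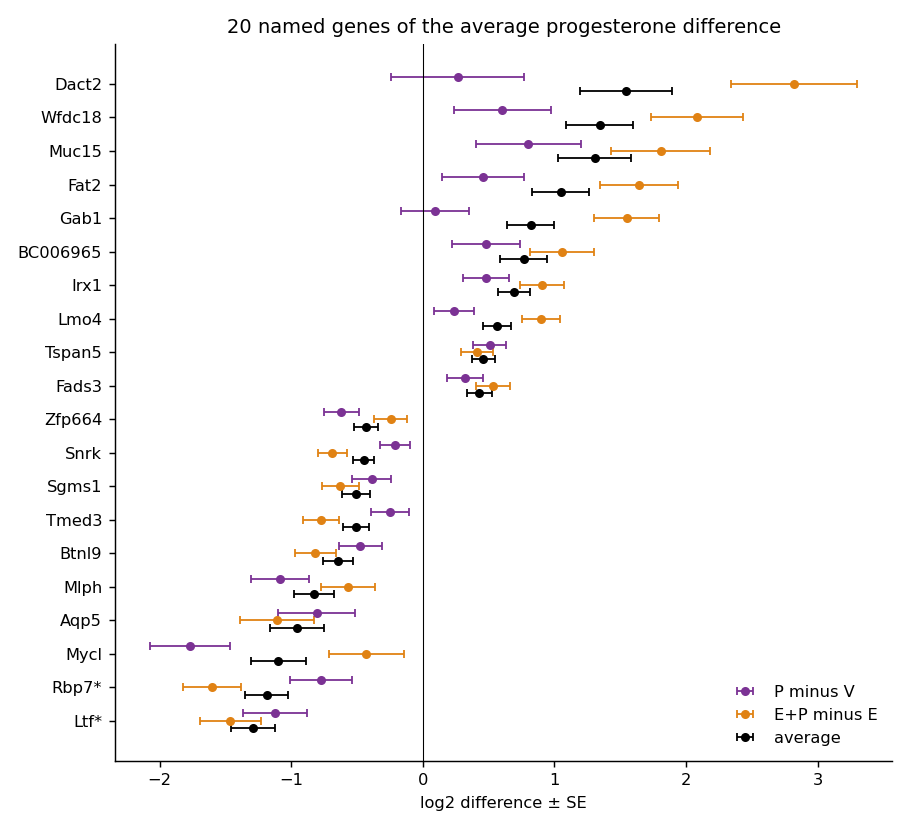
Log2 difference with its SE for the 20 named genes: P minus V, E+P minus E and their average. Asterisks mark the 2 genes called on the average, Ltf and Rbp7; Tspan5 and Fads3 have much the same difference at both estrogen levels, while Gab1 is at 0.09 without estrogen and 1.55 with it.

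The same 20 genes were read at each estrogen level. They had been picked by the average of these 2 differences in the same glands, so calls among them were favoured in advance. Of 21510 probe sets, 28 (0.13%) were called for E+P against E, 15 higher and 13 lower, and 0 (0%) for P against V by limma, with 1772 at unadjusted p below 0.05 (8.24%). Of the 20 genes, 11 were called for E+P against E, 6 of those higher and 5 of those lower, and 0 for P against V. These counts do not show that the effect was larger with estrogen: for 0 of the 20 did the difference between the estrogen levels pass the test, the smallest adjusted p being 0.148 for Gab1. The 2 counts came closer, at 4 for E+P against E and 2 for P against V, when dim probe sets were tested too. The count for E+P against E was 14 without V 4 and E 1, and it depended on single animals. It was 0 without E+P 2, 1 without E 2, 5 without E 3, 10 without E 1, 14 without E+P 3 or E+P 5 and 17 without E+P 1. The count for P against V was 9 without P 4, 6 without P 3, 5 without P 1 and 2 without E 3.

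Progesterone and estrogen were also set against each other in the same glands, as P minus E, which equals progesterone's average minus estrogen's. There were 15 called probe sets (0.0697%), 1 higher and 14 lower in P. Among the 10 genes named as lower with progesterone, 4 were called here. These 10 had been picked by progesterone's average, which is part of P minus E, so such calls were favoured in advance. Mycl was at -2.19 (adjusted p 0.00437), with an average of -1.10 for progesterone beside 1.09 for estrogen. Tmed3 was at -1.12 (0.00357), with -0.51 beside 0.61. Aqp5 was at -1.72 (0.0251), with -0.96 beside 0.76, and Zfp664 at -0.76 (0.0275), with -0.43 beside 0.33. Both nameless called probe sets, picked by the same average, were called here as well. Ltf (-1.0045, adjusted p 0.188) and Rbp7 (-0.06, adjusted p 0.966) were not. This count was 23 without P 1 and between 5 and 9 without E 1, E 2, E 3, P 2, P 3 or P 4.

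Across all probe sets the progesterone difference without estrogen was weakly and negatively correlated with the one with estrogen. The 2 differences had the same sign in 45.1% of 21510 probe sets, and across probe sets their correlation was -0.222 (Pearson) and -0.167 (Spearman). No animal enters both. Probe sets are not independent replicates, and no p is given. For estrogen, the difference without progesterone (E minus V) and with it (E+P minus P) correlated at -0.085 and -0.031. Among V glands V 4 had the highest lymphocyte marker score, and E 1 had the highest skeletal muscle marker score of all glands. Only V 4 is among the animals listed below as far from their group. Without V 4 and E 1, the progesterone values were -0.275 and -0.192.

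**Figure D3:**
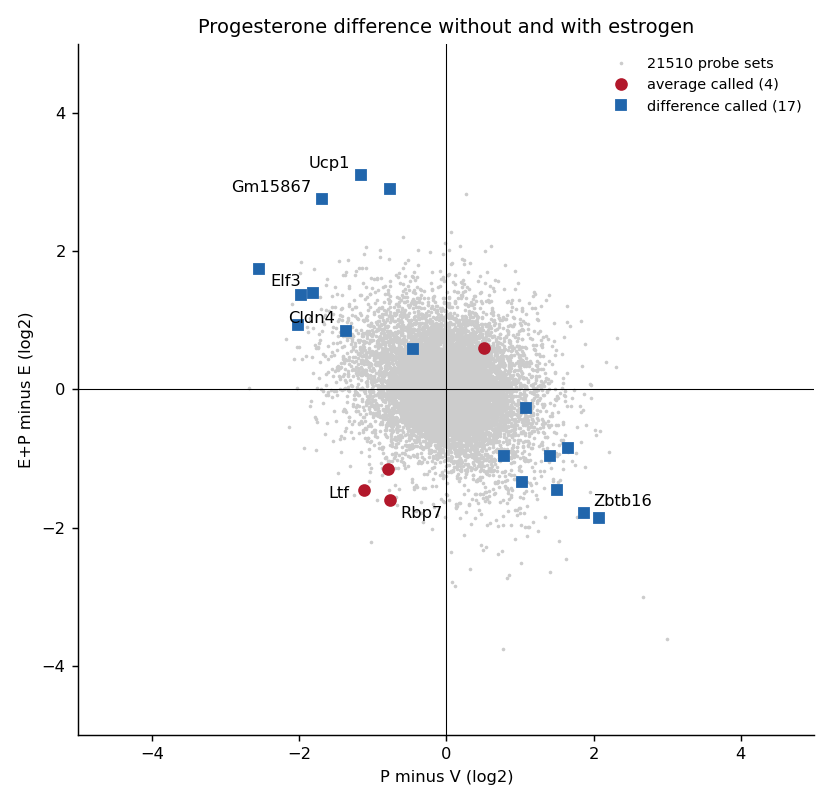
E+P minus E against P minus V (both log2) for each of the 21510 tested probe sets. The 4 probe sets called on the average lie in the quadrants of equal sign, and the 17 called for the difference between estrogen levels lie in the quadrants of opposite sign. Each test favours its own quadrants by its nature.

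The difference between the 2 progesterone effects was called for 17 probe sets (0.079%), 9 with a higher and 8 with a lower value under estrogen, and in all 17 progesterone went one way without estrogen and the other way with it. A test of this difference picks such probe sets by its nature. Of the 17, 0 were called on the average. The transcription factor gene Zbtb16 (Plzf), a target of glucocorticoid and progesterone receptors in human cells, led them. It stood at 8.14, 8.62, 9.83 and 9.22 in P glands and at 7.61, 7.10, 7.29 and 6.34 in V glands. Its level with estrogen was 6.53, 7.76, 7.23, 7.72 and 7.49 in E+P glands and 9.16, 9.22, 8.69 and 9.49 in E glands. Each single hormone thus went with a high level, and the glands with both hormones lay near those with neither. The 2 effects were 1.87 and -1.79, and their difference was -3.66 ± 0.465 (SE), adjusted p 0.00219. A second Zbtb16 probe set gave -2.37, adjusted p 0.00219. The call held with each of the 17 animals left out in turn and in the 6 other settings tried. Fkbp5, a steroid receptor co-chaperone that glucocorticoids and progestins induce, had a difference of -2.14 ± 0.445 (SE), adjusted p 0.101, which did not pass.

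For Elf3 and Cldn4 the 2 progesterone effects had the opposite signs to those of Zbtb16, negative without estrogen and positive with it. Elf3, an epithelial ETS transcription factor, stood at 5.08, 6.42, 4.86 and 4.99 in P glands and at 7.64, 7.68, 6.75 and 6.55 in V glands. With estrogen it stood at 7.69, 7.53, 7.54, 7.52 and 7.69 in E+P glands and at 5.51, 5.50, 6.33 and 7.47 in E glands. P and V glands did not overlap, nor did E+P and E glands. The difference was 3.21 ± 0.55 (SE), adjusted p 0.0309, while a second, brighter Elf3 probe set gave -0.20, adjusted p 0.816. Cldn4, a tight junction claudin of epithelium, lay between 6.16 and 7.73 in P glands, against 7.78 to 8.55 in V glands, and between 8.14 and 8.81 in E+P glands, against 7.15 to 8.08 in E glands. Its difference was 2.21 ± 0.379 (SE), adjusted p 0.0309.

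Ucp1, the uncoupling protein of brown fat, stood at 6.69, 5.41, 7.18 and 6.49 in P glands and at 7.45, 8.13, 7.41 and 7.41 in V glands. Its level with estrogen was 7.77, 7.72, 7.65, 8.80 and 5.48 in E+P glands and 4.92, 3.80, 5.01 and 3.80 in E glands, of which 2 were at the floor. The difference was 4.26 ± 0.721 (SE), adjusted p 0.0309. The score of 6 tested brown fat markers, Ucp1 among them, was lowest in E glands (-0.91 to -0.45), and its part was not tested. Gm15867 gave 4.44 ± 0.765 (SE), adjusted p 0.0276, with 2 P glands and 2 E glands at the floor. The call was lost with 10 of 17 animals left out in turn for Ucp1, 8 for Gm15867, 10 for Cldn4 and 11 for Elf3, with adjusted p up to 0.0979. None of these 4 genes was called without V 4 and E 1 together, with adjusted p of 0.0551 for Ucp1, 0.0699 for Gm15867, 0.0699 for Cldn4 and 0.0541 for Elf3. Testing dim probe sets too also ended the 4 calls (adjusted p 0.115 for Ucp1, Cldn4 and Elf3 and 0.0709 for Gm15867), and adding the fat pads to the fit ended that of Cldn4 (0.0839). The count of 17 became 5 without E 2, E 3, E+P 1 or E+P 2, 7 without P 1, P 2 or V 2, 9 without V 1, 10 without E 1, 11 without E 4 and 27 without P 4.

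**Figure D4:**
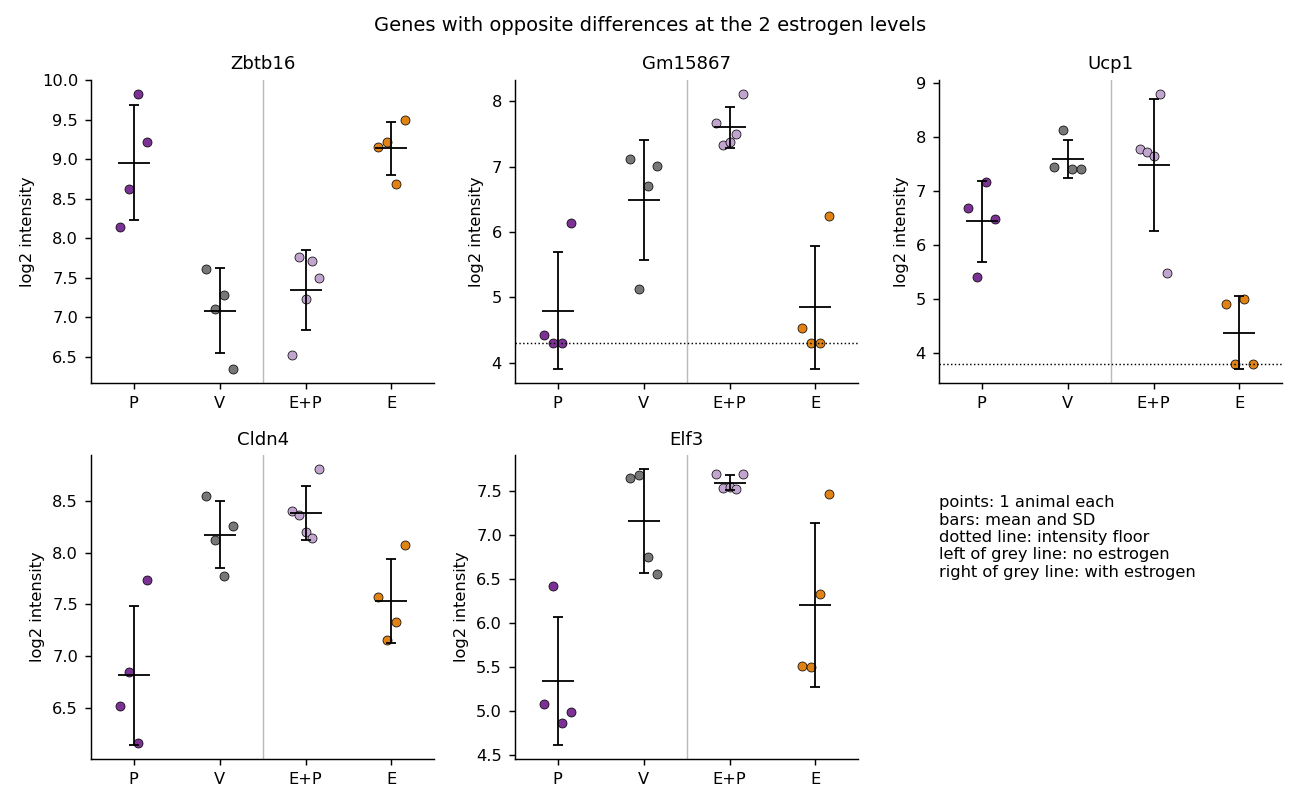
Log2 intensity in each intact gland for the 5 genes of smallest p in the difference between the estrogen levels. Points are animals, bars the mean and SD, and the dotted line is the intensity floor; Zbtb16 is high in P and E glands, while Elf3 and Cldn4 are lower in P than in V glands and higher in E+P than in E glands.

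Tissue make-up, RNA quality and single glands moved with some of these values. A marker score is the mean over a list's tested genes of the log2 difference from each gene's mean. The lymphocyte score ran from -1.34 to 0.94 in P, -1.22 to 0.85 in E+P, -1.40 to 1.38 in V and 0.45 to 1.75 in E glands; V 4 was at 1.38 and the other V glands at most at -1.11. The skeletal muscle score ran from -0.68 to 0.23 in P, -0.40 to 0.28 in E+P, -0.23 to 0.86 in V and -0.64 to 1.52 in E glands, with E 1 at 1.52. As a sign of RNA length, the log2 ratio between the Gapdh control probe sets for the 3' end and for the 5' end averaged 1.00 in P, 1.12 in E+P, 1.29 in V and 0.56 in E glands on array type A. In whole glands, fewer cells of a type and less RNA per cell cannot be told apart. Without V 4 and E 1, 3 probe sets were called on the average. The luminal score ran from -0.47 to -0.27 in P glands, against -0.29 to 0.03 in V glands, and from 0.17 to 0.63 in E+P glands, against -0.45 to 0.25 in E glands. The basal score ran from -0.51 to 0.03 in P glands, against -0.42 to 0.28 in V glands, and from 0.08 to 0.39 in E+P glands, against -0.35 to 0.19 in E glands. Both scores averaged higher in E+P than in E glands, as the mitosis score did, with overlap for each of these scores. Wfdc18, Muc15 and Irx1 also averaged higher there. Wfdc18 is itself a member of the luminal list, so it enters the luminal score. The part of the scores in the values of these genes was not tested. The part of these scores in the correlation between the 2 estrogen levels was not tested.

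Of 25 tested mitosis genes none passed the test, and 24 had a positive average, with a median of 0.40, beside 51.9% of all genes positive and a median of 0.0074. At unadjusted p below 0.05, 6 of the 25 were higher, beside 4.07% of all 11759 genes. The chromosomal passenger protein Birc5 averaged 0.89, the mitotic kinase Cdk1 0.83 and the kinesin Kif23 0.82. The mitosis score ran from -0.60 to -0.04 in P glands, against -0.81 to -0.49 in V glands, and from 0.10 to 1.38 in E+P glands, against -0.31 to 0.51 in E glands, with overlap in both pairs. The proliferation antigen Mki67 averaged 0.50 for progesterone (adjusted p 0.788) and 1.56 for estrogen (adjusted p 0.0141). Estrogen's average was called higher for 8 of the 25, beside 0.578% of all genes. DNA replication genes had a median of 0.19 with 20 of 28 positive, among them the replication clamp Pcna at 0.39.

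Fatty acid synthesis genes leaned the other way. Of 19 tested, 14 had a negative average, with a median of -0.12 and none called; 6 were lower at unadjusted p below 0.05, beside 2.87% of all genes. They were led by ATP citrate lyase (Acly, -0.77), which makes cytosolic acetyl-CoA, the citrate carrier Slc25a1 (-0.56) and the elongase Elovl6 (-0.62), with estrogen's averages at 0.17, 0.07 and 0.24. Acly was at -1.02 without estrogen and -0.52 with it. Adipocyte markers were negative in 16 of 20, with a median of -0.14 and Adipoq at 0.08, while leptin (Lep) stood at 0.52. Skeletal muscle markers were also negative in 11 of 13 with a median of -0.44; their part in the fatty acid synthesis values was not tested.

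Endothelial markers had a median of -0.13, with 16 of 24 negative and 1 called (Rbp7), beside 5661 of all 11759 genes negative and 2 called lower (0.017%). Besides Rbp7 and Btnl9, the guidance receptor Robo4 averaged -0.38 (adjusted p 0.554) and the endothelial claudin Cldn5 -0.35 (adjusted p 0.698). Cldn5 was at -0.91 without estrogen and 0.21 with it, and the difference between these did not pass the test (adjusted p 0.165). Positive averages were found for the surface proteins Cd34 at 0.29 (adjusted p 0.832) and Pecam1 at 0.21 (0.895), the receptor Tie1 at 0.24 (0.874) and the secreted factor Egfl7 at 0.21 (0.908). The score of the whole list, which holds Rbp7 and Btnl9, ran from -0.18 to 0.36 in P, -0.51 to -0.06 in E+P, -0.0022 to 0.43 in V and -0.25 to 0.01 in E glands. Its part in the fall of Rbp7 was not tested. Milk and secretory genes were mixed: 9 of 13 were negative, with 1 called lower (Ltf), beside 0.017% of all genes. Lipocalin 2 (Lcn2), an iron-siderophore binder of innate defence, averaged -0.57 (adjusted p 0.694), opposite in sign to Wfdc18 and Muc15. A second, dimmer Lcn2 probe set read -0.003 (adjusted p 0.999). Luminal markers had a median of 0.07, at -0.11 without estrogen and 0.41 with it. Keratins 8 and 18, structural proteins of luminal cells, averaged 0.01 and -0.10.

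Genes known as targets of the progesterone receptor showed no common direction. Of 15 tested, 9 were positive and 6 negative, with a median of 0.04 and none called on the average. Among them, the epithelial transcription factor Elf5 averaged 0.27 (adjusted p 0.794), the inhibitor of differentiation Id4 0.21 (0.863), the cell cycle regulator Ccnd1 0.23 (0.834), Fkbp5 -0.24 (0.893) and the clock gene Per1 -0.89. Wnt4, measured by a single tested probe set, averaged -0.10 (0.943), and the estrogen receptor Esr1 0.07 (0.948). The progesterone receptor (Pgr), Rankl (Tnfsf11), Cyp26a1, Greb1, Csn2, Wap and Krt14 were too dim to be tested, and Areg and Calca had no probe set under those symbols. Of the estrogen receptor targets, 17 were tested, 9 positive and 8 negative, and 1 was called lower (Ltf), beside 0.017% of all genes. Myc averaged 0.40 (adjusted p 0.798). Stc2, a secreted glycoprotein, averaged -0.76 (adjusted p 0.496), at 0.01 without estrogen and -1.52 with it. The difference between these did not pass the test (adjusted p 0.204). A second, dimmer Stc2 probe set read 0.31 on average (adjusted p 0.918). Glycam1, a secreted mucin-like protein, ranged from the floor to 10.70 in P, to 10.32 in E+P and to 10.78 in V glands, and from 10.27 to 11.79 in E glands; it averaged -0.31 (0.984).

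**Figure D5:**
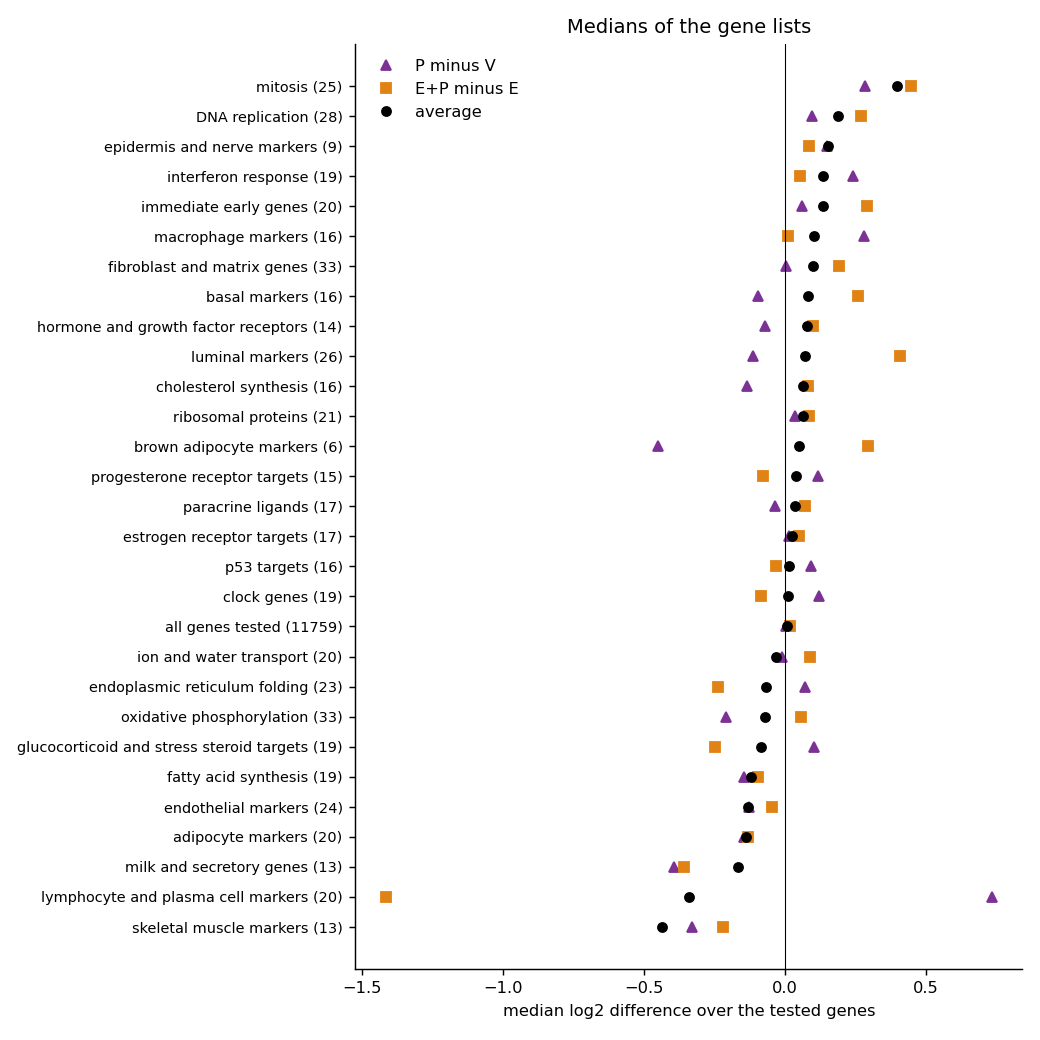
Median log2 difference over the tested genes of each of 28 gene lists and of all genes, for P minus V, E+P minus E and their average. The lymphocyte list has the widest gap, at 0.73 without estrogen and -1.41 with it, and the mitosis list the highest average, at 0.40.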

How the data were processed

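The deposited values are the authors' MAS5 signal intensities on a linear scale, per the submitters' processing notes; neither the version nor the settings are named there. Their 2% trimmed means lay between 150.03 and 150.1 on every array, so the authors had scaled them before deposit. Labels name Ultraspec extraction for 24 of 60 samples and biotin labelling from 2 µg of total RNA.

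Here the 17 intact glands were scaled to a common trimmed mean, given an intensity floor at the 25th percentile (A 13.9, B 28.8, C 19.8) and log2-transformed, so differences of dim genes are understated. Probe sets above the 50th percentile in at least 4 animals were tested: 6884, 7198 and 7428. The 198 control probe sets were left out of the test. Names come from the platform annotation (29131 probe sets with 1 symbol, 724 with several, 6846 with none). Array precision is limited by the number of arrays.

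Each array type was fitted on its own in limma 3.58.1 (R 4.3.3), using group means and an intensity trend. On simulated data with 200 of 21510 probe sets changed, the progesterone average recovered 57% of 2-fold and 94% of 4-fold changes. Of its 161 calls, 6.21% were false. The simulated noise was normal and independent, the changes were equal at both estrogen levels, and no estrogen effect or tissue shift was put in. These shares may not hold for the real data, where 4 probe sets were called. Marker scores join the arrays of a group by replicate number.

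A gene is represented by 1 probe set (A before B before C, then plain suffix, then highest mean). Named are the called genes, those of smallest p up to 10 in each direction, up to 4 members of each list with a call, a fixed set, and 5 genes of the difference between estrogen levels. Other genes given from the 28 lists were singled out after their values were seen. The members and lists were chosen with earlier results of these data known. Other scalings, floors, filters, models and sets of animals were tried as alternatives.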

Additional observations from a re-analysis of the deposited data

Results flagged for a closer look

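Values are log2 intensities unless stated, and 19 of 176 groups tested held an animal far from its group; chance alone gives about 1 in 20. In glands with progesterone these were Cldn5 in P 3 (6.97, the next at 7.84), Lcn2 in P 1 (7.95, next 8.37), Elf3 in P 2 (6.42, next 5.08), Gm15867 in P 4 (6.14, next 4.43), Btnl9 in E+P 2 (8.85, next 9.17) and Fat2 in E+P 2 (9.11, next 8.70). The skeletal muscle score of P 2 was 0.23, the next P gland being at -0.57.

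In V glands, V 4 stood apart in 5 measures. Its lymphocyte score was 1.38, against -1.11 at most in the other V glands, Glycam1, which also marks the high endothelium of lymph nodes, read 10.78 against the floor of 3.80, Cldn5 read 8.18 (next 8.72), Adipoq 13.02 (next 13.29) and Esr1 9.11 (next 9.77). The other V glands concerned were V 3 in Mlph (7.39, next 7.90) and Sgms1 (9.25, next 9.04) and V 2 in Ucp1 (8.13, next 7.45). In E glands, Lcn2 in E 2 read 10.31 (next 9.19), Adipoq in E 2 read 12.64 (next 13.08), Gm15867 in E 4 read 6.24 (next 4.53) and Dact2 in E 4 read 4.39, just above the floor of 4.31 at which the others lay.

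The progesterone difference changed between the estrogen levels, by the test of that difference, for 5 named genes: Zbtb16 (-3.66), Gm15867 (4.44), Ucp1 (4.26), Cldn4 (2.21) and Elf3 (3.21).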

How the results depend on the processing

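The direction of Ltf and Rbp7 held in each of 40 alternative settings. Ltf was called in 38, with adjusted p between 0.00277 and 0.0702, and Rbp7 in 37, between 0.00133 and 0.385. Both stayed called with any 1 of the 17 animals left out.

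The count of 4 called probe sets on the average became 9 with the floor at the 40th percentile, 8 with an offset of 50, 12 with the filter at the 75th percentile, 7 with array weights, 2 without the intensity trend or with the Gapdh ratio in the model, 1 without the estrogen term or with the skeletal muscle score, and 0 without the filter (2144 at unadjusted p below 0.05). Leaving out 1 animal gave 2 to 8: 8 without P 1, 7 without E 4, 3 without P 3, E+P 5 or V 4, and 2 without any other. For P against V, median scaling and no filter each gave 2 calls, and leaving out 1 animal 0 to 9. For E+P against E (28), no filter gave 4 and the loss of V 4 and E 1 together 14, and leaving out 1 animal 0 to 35. The 17 calls of the difference became 11 without the filter and 5 to 27 with 1 animal left out, and the 15 of P against E 5 to 23.

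Replicate numbers are shared between groups. Of 24 same-number pairs, 0 had correlated deviations over 0.1 (median 0.028), beside 3 of 84 pairs with different numbers (median -0.006). Of 17 animals, 2 correlated best with their own number. These values show no clear pairing of the animals, but with so few pairs they cannot exclude it. With a replicate block, the counts were 2 for the average, 0 for P against V, 3 for E+P against E, 9 for the difference and 12 for P against E, and the adjusted p was 0.0702 for Ltf and 0.121 for the difference of Elf3, which ended both calls.

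Across single genes, 35 values took the opposite sign, each of a gene not called. Dact2 and BC006965 read -0.129 and -0.0752 by their brightest probe set. Zbtb16 (0.04) read -0.0227 with median scaling, -0.0937 with array weights, -0.0569 in an additive model, -0.0499 without the estrogen term, -0.0792, -0.0104 and -0.0167 with the skeletal muscle score, Gapdh ratio and luminal score, and -0.0813 without V 4 and E 1. Krt8 (0.01) read -0.0496 with median scaling, -0.00775 with the replicate block, -0.0613 with the Gapdh ratio and -0.175 with the luminal score. Glycam1 (-0.31) read 0.0671 with the floor at the 10th percentile, 0.154 with the replicate block, 0.500 with the lymphocyte score and 0.418 without V 4 and E 1. With 1 animal left out, Zbtb16 lay between -0.106 and 0.174, Krt8 between -0.0936 and 0.0902, Glycam1 between -0.669 and 0.562, Esr1 between -0.0176 and 0.123 and Wnt4 between -0.209 and 0.000169. The cause was not tested. Dim probe sets are limited by background, and differences against a group at the floor depend on where the floor is set.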

Other observations

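Of the groups that belong to no comparison above, interferon response genes had positive averages in 15 of 19 tested, with a median of 0.14 and none called. Of all genes, 51.9% had a positive average, with a median of 0.0074. The antiviral genes Ifit3 and Rsad2 averaged 0.65 and 0.50. Rsad2 was at 1.06 without estrogen and -0.06 with it, and the difference between these was not called. Macrophage markers were positive in 14 of 16, with a median of 0.10, and fibroblast and matrix genes in 25 of 33, with a median of 0.10. Oxidative phosphorylation genes were negative in 24 of 33, with a median of -0.07, at -0.21 without estrogen and 0.06 with it. At unadjusted p below 0.05, 3 of the 19 interferon response genes were higher. Of the fibroblast and matrix genes 1 was higher and 1 lower, and of the macrophage and oxidative phosphorylation genes none was either. Of all genes, 4.07% were higher and 2.87% lower by that threshold. The clock gene Nr1d1 averaged -0.55, with 0.08 without estrogen and -1.18 with it. The difference between these did not pass the test (adjusted p 0.165). Per1 averaged -0.89, with -0.86 without estrogen and -0.92 with it.

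Gap junction gene Gjb2, which encodes connexin 26 of secretory epithelium, averaged 1.32 (adjusted p 0.375), with 0.93 without estrogen and 1.72 with it. The paracrine ligands Wnt5b and Tgfa averaged 1.02 and 0.79, at 1.81 and 1.37 with estrogen and 0.23 and 0.20 without; the adjusted p of that difference was 0.309 and 0.496.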
